A study of Homo sapiens with 12 samples.

Results

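The epidermal growth factor receptor (EGFR) family, its ligands and MET were followed in TPC1, a cell line from a human papillary thyroid carcinoma, and in 3 Dicer1 (+/-) clones made from it. The set holds 10 of the 58302 genes in the deposited table, taken by name: the 4 receptors EGFR, ERBB2, ERBB3 and MET, and the 6 ligands HBEGF, AREG, EREG, TGFA, BTC and NRG1. TPC1 carried the wt genotype, and D11, WB1 and TD5 were heterozygous after a Cas9 plasmid aimed at exon 11 of Dicer1 was transfected transiently and single cells were grown out. Each clone is 1 monoclonal line, and TPC1 is the parental line and not a clone that passed through the same steps, so an effect of Dicer1 cannot be told apart from differences that arose with cloning. The labels name no further treatment of any line. RNA was sequenced from 3 libraries per line, 12 in all, and the labels do not say whether these came from separate cultures, so p-values measure the spread between these libraries only.

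EGFR and its relatives are tyrosine kinases of the cell surface that pair up when a ligand binds and then signal through the RAS-MAPK and PI3K pathways. Most of their ligands are made as membrane-anchored precursors and are released by metalloproteases, while MET answers to hepatocyte growth factor (HGF). MET and EGFR are both well known in papillary thyroid carcinoma, where MET protein is often abundant. Dicer1 cuts precursor microRNAs into their mature form, and microRNAs lower the levels of many mRNAs.

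Values are scaled reads, that is, reads per gene after the authors had brought each library to 20000000 aligned reads. Estimates of sequencing depth ranged from 12700000 to 21020000 reads a library, so that 3 reads correspond to 2.85 to 4.72 scaled reads. Of the thyroid markers, PAX8, FOXE1 and TG passed the filter on low values and TSHR, SLC5A5 and NKX2-1 stayed at 5 scaled reads or fewer in every library. Of the epithelial markers, KRT7, KRT8 and KRT18 passed and EPCAM and CDH1 stayed at 5 or fewer, and the sum of the 6 on this list was 1070 to 1220 per 1000000 in TPC1 and 844 to 966 over the clones. Of the leukocyte markers, CD68 passed and PTPRC and CD3E stayed at 5 or fewer, with a sum of 46.1 to 57.5 in TPC1, 48.7 to 56.2 in D11, 62.4 to 75.6 in WB1 and 60.3 to 68 in TD5. This sum is nearly all CD68, which alone ran from 46 to 75.6. Of the fibroblast and mesenchymal markers, COL1A1 and PDGFRB passed and COL1A2 and DCN stayed at 5 or fewer. Their sum was 9.19 to 14.2 in TPC1, 8.24 to 10.1 in D11, 4.75 to 7.15 in WB1 and 9.34 to 10.9 in TD5. No endothelial marker passed. The part of these shifts in the results was not tested. DICER1 read 1360, 1129 and 1101 for TPC1, 977, 1051 and 1093 for D11, 881, 939 and 815 for WB1, and 643, 627 and 809 for TD5. All clone libraries lay below those of TPC1, and D11 gave a log2 fold change of -0.19 (adjusted p = 0.138), WB1 of -0.43 (0.00404) and TD5 of -0.77 (9.02e-05). Lines were compared with limma on log2(value per 1000000 + 1), with p-values adjusted over all 16027 genes tested, and a gene was called when its adjusted p was under 0.05 and its change at least 1.5-fold. On this scale the change of genes with few reads is understated. Because RNA of whole cultures was measured, fewer cells that make a transcript and less transcript per cell cannot be told apart.

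AREG was the only member called against TPC1. It was lower in WB1 and TD5, and 8 of the 10 members could be tested. Against TPC1, 0 of the 8 were called in D11, where 4.84% of all genes tested were, 1 in WB1 (4.99%) and 1 in TD5 (2.6%). With adjusted p alone, 4 of the 8 passed in D11, 4 in WB1 and 1 in TD5, beside 33.3%, 30.9% and 11.9% of all genes tested. For D11, WB1 and TD5 in turn, the median log2 fold change of the 8 was 0.12, 0.02 and -0.11, and that of all genes 0.05, 0.06 and 0.00. The 3 comparisons share the TPC1 libraries.

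**Figure D1:**
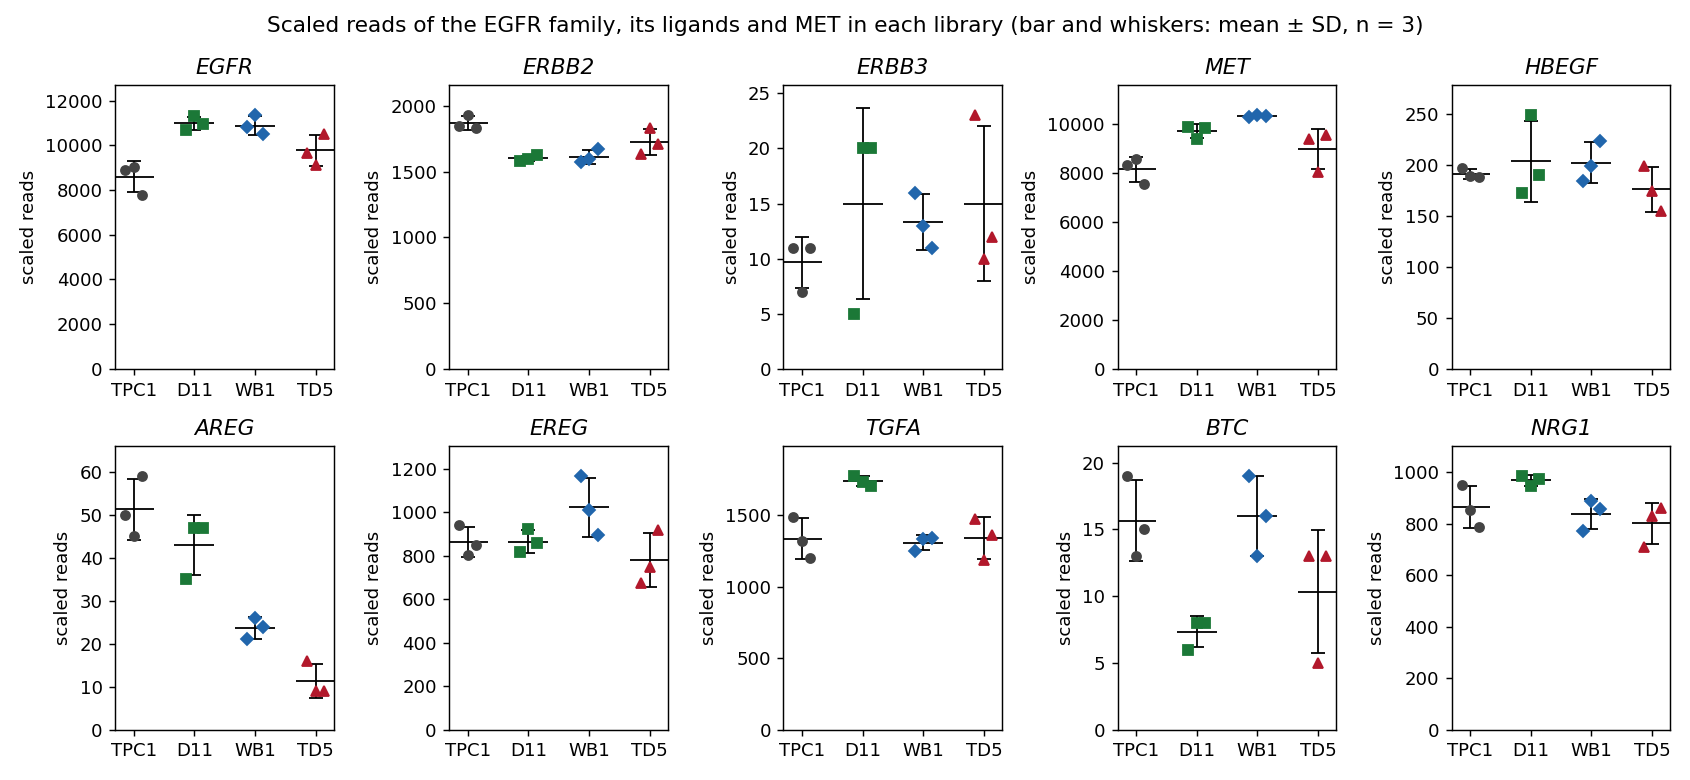
Scaled reads of the 10 members in each of the 12 libraries, by line, on linear axes that start at 0. Points are libraries, and the bar with whiskers is the mean ± SD (n = 3). AREG steps down from 45 to 59 in TPC1 to 9 to 16 in TD5, and the TGFA libraries of D11 lie above all others.

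AREG encodes amphiregulin, a ligand of EGFR released from the cell surface by ADAM17. The gene (ENSG00000109321) lies on chromosome 4 at 74445136 to 74455005, on the plus strand of GRCh38, in a cluster of EGFR ligand genes. EREG lies before it on the same strand, with 56.4 kb between them, and BTC follows 290 kb after AREG on the minus strand. The 150 bases before the start of AREG and of EREG are shown because AREG is the called member and EREG its neighbour in the cluster. The sequences are RefSeq's on GRCh38.p14, 5′ to 3′, and capitals mark the cAMP response element TGACGTCA and the TATA box letters TATAAA:
AREG, chr4:74444986-74445135, plus strand: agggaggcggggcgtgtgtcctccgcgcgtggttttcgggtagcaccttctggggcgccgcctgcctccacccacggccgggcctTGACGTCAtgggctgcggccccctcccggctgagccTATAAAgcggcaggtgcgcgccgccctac
EREG, chr4:74364995-74365144, plus strand: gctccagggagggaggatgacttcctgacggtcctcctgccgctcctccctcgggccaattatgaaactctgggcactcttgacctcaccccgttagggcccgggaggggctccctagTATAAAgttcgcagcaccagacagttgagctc
The cAMP response element began 65 bases before the AREG start, and the TATA letters 29 bases before it in AREG and 32 in EREG. Both motifs were searched on both strands in windows from 250 bases before to 50 after each start. TGACGTCA was found in 649 of 35116 such windows (1.85%) and, of the 10 windows of the 8 members with an entry, in AREG's. TATAAA was found in 11.5% of all windows and in those of AREG, EREG and EGFR. A match describes the letters and does not show that a factor binds there.

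AREG read 50, 45 and 59 scaled reads for TPC1, 35, 47 and 47 for D11, 21, 26 and 24 for WB1, and 16, 9 and 9 for TD5. All libraries of WB1 and TD5 lay below those of TPC1 and of D11, the TD5 libraries lay below those of WB1, and D11 overlapped with TPC1. The mean was 51.3 ± 7.09 (SD, n = 3) in TPC1, 43 ± 6.93 in D11, 23.7 ± 2.52 in WB1 and 11.3 ± 4.04 in TD5. The levels were thus 83.8%, 46.1% and 22.1% of the TPC1 mean, and TPC1 stood 2.17-fold over WB1 and 4.53-fold over TD5. The fitted log2 fold change was -0.18 for D11 (SE 0.136, adjusted p = 0.315), -0.70 for WB1 (adjusted p = 0.00137) and -1.19 for TD5 (adjusted p = 2.93e-05). The 95% interval for D11 was -0.47 to 0.11. These values rest on 38 to 52 estimated reads per library in TPC1, 25 to 39 in D11, 18 to 21 in WB1 and 6 to 10 in TD5. The calls in WB1 and TD5 were each made in 20 of 21 alternatives, with adjusted p from 0.00031 to 0.0111 in WB1 and from 1.13e-05 to 0.000525 in TD5. The exception was a pseudocount of 4, under which the change fell below 1.5-fold (-0.34 and -0.52). With voom on the estimated reads the log2 fold change came to -1.09 and -2.19. Several alternatives leave the log2 fold change as it is by construction and can move adjusted p only. These are the filters, the fit of the compared lines alone, the replicate block and leaving out a library of another line.

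The lines also differed from each other in AREG. TD5 lay below D11 with a log2 fold change of -1.01 (adjusted p = 8.3e-05), which was called, in a comparison where 3.99% of all genes were. WB1 against D11 gave -0.52 (adjusted p = 0.0228) and TD5 against WB1 -0.48 (adjusted p = 0.0267), both past adjusted p and under 1.5-fold. Neither of these last differences held in every alternative. With all libraries kept, WB1 against D11 did not pass adjusted p with no filter on low values (0.0747). TD5 against WB1 did not pass with no filter (0.0785), a pseudocount of 4 (0.0594) or the GC correction (0.0672). Nor did it in a fit of these lines alone (0.0635). Single libraries mattered as well. WB1 against D11 no longer passed without D11 replicate 2 or 3 or WB1 replicate 1 or 3 (adjusted p = 0.0673 to 0.105), and TD5 against WB1 without any one of the WB1 libraries or TD5 replicate 2 or 3 (0.0519 to 0.0995). The line means of AREG and of DICER1 fell in the same order, TPC1, D11, WB1, TD5, with DICER1 at 1197, 1040, 878.3 and 693. This is an order of RNA levels in 4 lines, each clone being 1 line, and no test was made of it. In limma, D11 did not pass adjusted p against TPC1 for AREG (0.315) or DICER1 (0.138). Nor did WB1 against D11 for DICER1 (0.178). The study's Western blots showed less Dicer1 protein in these clones than in TPC1, with 1 approximate figure given for all of them.

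EREG encodes epiregulin, a ligand of EGFR and ERBB4. This neighbour of AREG (ENSG00000124882, chromosome 4, 74365145 to 74388749) read 939, 801 and 850 for TPC1, 815, 922 and 858 for D11, 1166, 1009 and 895 for WB1, and 676, 748 and 917 for TD5. Its libraries overlapped between every clone and TPC1. No clone differed from TPC1 past adjusted p (log2 fold change 0.00 in D11, 0.23 in WB1 and -0.15 in TD5; adjusted p = 0.983, 0.105 and 0.397). TD5 lay below WB1, at -0.39 (adjusted p = 0.0256), although TD5 replicate 3 overlapped with WB1, and did not pass without WB1 replicate 1 or 2 or TD5 replicate 1 or 2 (adjusted p = 0.0733 to 0.128), and the GC correction gave -0.20 (0.0812). Without WB1 replicate 3, WB1 passed against TPC1 (0.32, adjusted p = 0.0399), and without TD5 replicate 3, TD5 passed against D11 (-0.27, adjusted p = 0.0487). A correction for GC content gave EREG -0.31 in D11 (adjusted p = 0.00522), against 0.00 without it, and 0.31 for WB1 against D11 (adjusted p = 0.00923).

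TGFA encodes transforming growth factor alpha, a ligand of EGFR. The gene (ENSG00000163235) lies on the minus strand of chromosome 2 at 70447284 to 70554193. It read 1486, 1319 and 1199 for TPC1, 1773, 1730 and 1707 for D11, 1247, 1336 and 1341 for WB1, and 1475, 1185 and 1360 for TD5. Every D11 library lay above the other 9, while TPC1, WB1 and TD5 overlapped. The mean was 1335 ± 144 in TPC1, 1737 ± 33.5 in D11, 1308 ± 52.9 in WB1 and 1340 ± 146 in TD5 (n = 3 each). Against TPC1 the log2 fold change was 0.38 in D11 (SE 0.083, adjusted p = 0.00316), -0.02 in WB1 (0.847) and 0.01 in TD5 (0.978). The difference between clones was tested as well: WB1 against D11 gave -0.40 and TD5 against D11 -0.37, both with adjusted p = 0.00452. Adjusted p stayed under 0.05 in every alternative run for these 3 differences (21, 21 and 22), and none of them reached 1.5-fold.

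HBEGF encodes heparin-binding EGF-like growth factor, a ligand of EGFR and ERBB4. The gene (ENSG00000113070, chromosome 5, 140332843 to 140346603, minus strand) read 197, 189 and 188 for TPC1, 173, 249 and 190 for D11, 185, 199 and 224 for WB1, and 199, 175 and 155 for TD5. The lines overlapped throughout. Against TPC1 the log2 fold changes were 0.07, 0.07 and -0.11, with 95% intervals of -0.19 to 0.33, -0.19 to 0.33 and -0.37 to 0.15.

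NRG1, which encodes neuregulin 1, the ligand of ERBB3 and ERBB4, read 950, 855 and 789 for TPC1, 985, 946 and 975 for D11, 773, 887 and 856 for WB1, and 711, 829 and 863 for TD5. D11 overlapped with TPC1 and lay above every library of WB1 and TD5. Against TPC1 no clone passed adjusted p (0.16, -0.04 and -0.11 for D11, WB1 and TD5; adjusted p = 0.146, 0.738 and 0.452), although WB1 did with the GC correction (-0.21, adjusted p = 0.045). TD5 lay below D11 at -0.27 (adjusted p = 0.0289), but not past adjusted p without TD5 replicate 1 (-0.19, adjusted p = 0.138) or without any one of the D11 libraries (0.0649 to 0.0832). The GC correction brought it to -0.11 (adjusted p = 0.343), and it did not pass with median-of-ratios scaling (-0.22, 0.0588) or with no filter (0.0567).

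BTC encodes betacellulin, a further ligand of EGFR and ERBB4, and was too low to be tested. The gene (ENSG00000174808, chromosome 4, 74744759 to 74794523) read 19, 13 and 15 for TPC1, 6, 8 and 8 for D11, 19, 13 and 16 for WB1, and 13, 5 and 13 for TD5. D11 lay below all libraries of TPC1 and WB1, on 4 to 6 estimated reads per library. An exact two-sided permutation test of D11 against TPC1 gave p = 0.1, the smallest that 3 against 3 libraries allow. With no filter on low values limma gave -0.38 on the log2 scale for D11 against TPC1 (adjusted p = 0.0482) and 0.40 for WB1 against D11 (adjusted p = 0.101).

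Of the receptors, EGFR and MET were higher and ERBB2 lower than in TPC1 in D11 and WB1, each past adjusted p. None of the tested receptors reached 1.5-fold, and in TD5 none passed adjusted p. EGFR (ENSG00000146648, chromosome 7, 55019017 to 55211628, plus strand) read 8918, 9049 and 7786 for TPC1, 10699, 11296 and 10936 for D11, 10804, 11340 and 10509 for WB1, and 9677, 9125 and 10513 for TD5. All 9 clone libraries lay above all 3 of TPC1, which held for 1 of the 8 members tested; of all genes tested, 11.7% had their clone libraries on one side of TPC1. The mean rose from 8584 ± 694 in TPC1 to 10977 ± 301 in D11 (128% of TPC1) and 10884 ± 421 in WB1 (127%), and was 9772 ± 699 in TD5 (114%). D11 gave a log2 fold change of 0.36 (SE 0.065, adjusted p = 0.000876), WB1 of 0.34 (adjusted p = 0.00114) and TD5 of 0.19 (adjusted p = 0.0695, 95% interval 0.05 to 0.32). For D11 and WB1 adjusted p stayed under 0.05 in all 21 alternatives, and TD5 passed without TD5 replicate 2 (0.23, adjusted p = 0.0279) and with the GC correction (0.19, adjusted p = 0.0333). Without TPC1 replicate 3, TD5 gave 0.12 (adjusted p = 0.291).

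MET, the receptor for HGF (ENSG00000105976, chromosome 7, 116672196 to 116798377, plus strand), read 8333, 8561 and 7570 for TPC1, 9903, 9389 and 9850 for D11, 10282, 10365 and 10348 for WB1, and 9392, 8046 and 9552 for TD5. D11 and WB1 lay above every TPC1 library, while TD5 replicate 2 fell among those of TPC1. Fitted log2 fold changes came to 0.25 for D11 (adjusted p = 0.00771), 0.34 for WB1 (0.00116) and 0.14 for TD5 (0.176), where the alternatives ran from 0.09 without TPC1 replicate 3 (0.5) to 0.22 without TD5 replicate 2 (0.0198). With the correction for GC content, MET in D11 gave 0.11 (adjusted p = 0.15). TD5 against WB1 gave -0.20 (adjusted p = 0.0457). This did not pass with the replicate number as a block (0.0686), nor without TPC1 replicate 1, TD5 replicate 2 or any one library of D11 or WB1 (0.054 to 0.212). The GC correction gave -0.09 (adjusted p = 0.292) and median-of-ratios scaling -0.15 (0.139).

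ERBB2 encodes the family member with no known ligand of its own, which serves as a partner of the others. The gene (ENSG00000141736, chromosome 17, 39687914 to 39730426, plus strand) read 1847, 1927 and 1828 for TPC1, 1582, 1595 and 1624 for D11, 1570, 1592 and 1668 for WB1, and 1637, 1831 and 1706 for TD5. D11 and WB1 lay below TPC1 without overlap, and 1 TD5 library overlapped. Against TPC1 it changed by -0.22 in D11 (log2, adjusted p = 0.0103) and -0.21 in WB1 (0.0132), and gave -0.11 in TD5 (0.225). With the GC correction D11 and WB1 gave -0.10 and -0.11 (adjusted p = 0.155 and 0.13), and without TPC1 replicate 2, WB1 gave -0.19 (adjusted p = 0.0545).

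ERBB3 encodes the receptor of neuregulins whose own kinase is weak. The gene (ENSG00000065361, chromosome 12, 56076799 to 56103505, plus strand) read 11, 7 and 11 for TPC1, 5, 20 and 20 for D11, 16, 13 and 11 for WB1, and 23, 10 and 12 for TD5. All lines overlapped, and the exact two-sided permutation p against TPC1 was 0.4, 0.3 and 0.4, where the smallest possible is 0.1. ERBB3 shares sequence on the same strand with AC034102.2 (ENSG00000257411), which stood at 2847 to 3712, so its own reads are uncertain.

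EGFR and ERBB2 also overlap with genes on the opposite strand. EGFR-AS1, a noncoding RNA within the EGFR locus at 55179750 to 55188977, averaged 304.3 in TPC1, 376 in D11, 368 in WB1 and 333 in TD5. Its log2 fold changes were 0.29, 0.26 and 0.11 (adjusted p = 0.0377, 0.0607 and 0.521). The libraries were prepared with a stranded kit, but the strand setting of the counting is not given in the sources used here, so EGFR-AS1 and EGFR reads may not be fully separate. PGAP3 at 206 to 255 and MIEN1 at 617 to 784, which overlap with ERBB2, did not pass adjusted p in any clone against TPC1.

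**Figure D2:**
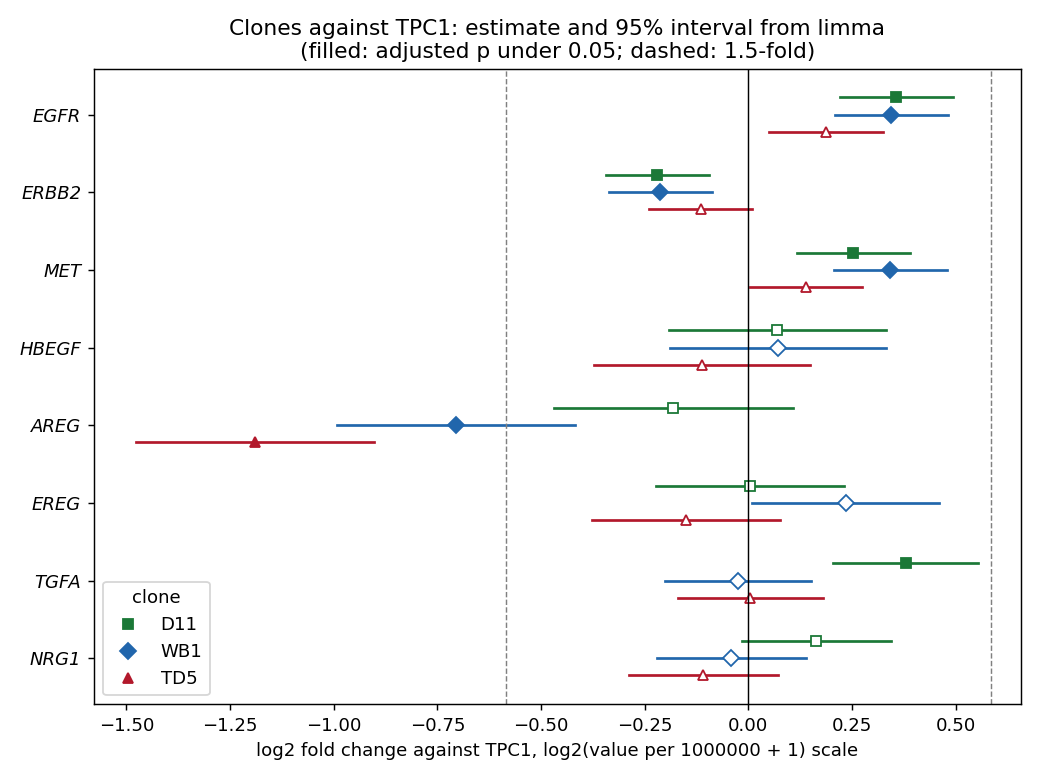
Log2 fold change of the 8 tested members in D11, WB1 and TD5 against TPC1 on the log2(value per 1000000 + 1) scale, with 95% intervals from limma. Filled symbols have an adjusted p under 0.05 and dashed lines mark 1.5-fold; only AREG in WB1 (-0.70) and TD5 (-1.19) lies past them.

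Between the clones, AREG passed adjusted p in every pair and TGFA in both pairs with D11. WB1 against D11 had 0 of 8 called (2.85% of all genes) and 2 past adjusted p (8.07%), AREG and TGFA. TD5 against D11 had 1 called (3.99%) and 3 past adjusted p, AREG, TGFA and NRG1 (23.2% of all genes), all lower in TD5. EGFR gave -0.17 there (adjusted p = 0.0671), and with the replicate number as a block in these lines alone, a pairing that rests on the data, adjusted p was 0.0268. It also passed without TPC1 replicate 3 (0.0392) or TD5 replicate 3 (0.0155), as did TD5 against WB1 without TD5 replicate 3 (-0.21, adjusted p = 0.0295). TD5 against WB1 had 0 called (2.33%) and 3 past adjusted p, MET, AREG and EREG (13.6%), again all lower in TD5. None of these 3 passed with the GC correction (adjusted p = 0.292, 0.0672 and 0.0812), with no filter on low values (0.109, 0.0785 and 0.0588) or in a fit of these lines alone (0.0987, 0.0635 and 0.0667). The median of the 8 was -0.18 for TD5 against D11 and -0.17 against WB1, where that of all genes was -0.05 in both.

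Per length of the transcript, MET and EGFR stood highest and BTC and ERBB3 lowest. In TPC1, MET reached 59.7 per 1000000 per kb of its canonical transcript, EGFR 43.3, ERBB2 20.5, TGFA 16.2, EREG 9.35, HBEGF 4.05, NRG1 3.61, AREG 2.08, BTC 0.295 and ERBB3 0.086. No neighbours in this order overlapped in their TPC1 libraries. The order held in the clones except that in D11 TGFA (21.1) stood above ERBB2 (17.5), and that the libraries of HBEGF and NRG1, and those of BTC and ERBB3, overlapped in D11 and TD5. AREG fell to 0.958 in WB1 and 0.459 in TD5, still above BTC in both. TGFA was thus the EGFR ligand with the highest level in every line, followed by EREG. The order depends on the transcript taken for each gene, and which isoforms these cells make was not measured. NRG1, for example, had 43.2 per 1000000 in TPC1 over 11983 bases, and EREG 43.1 over 4615.

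**Figure D3:**
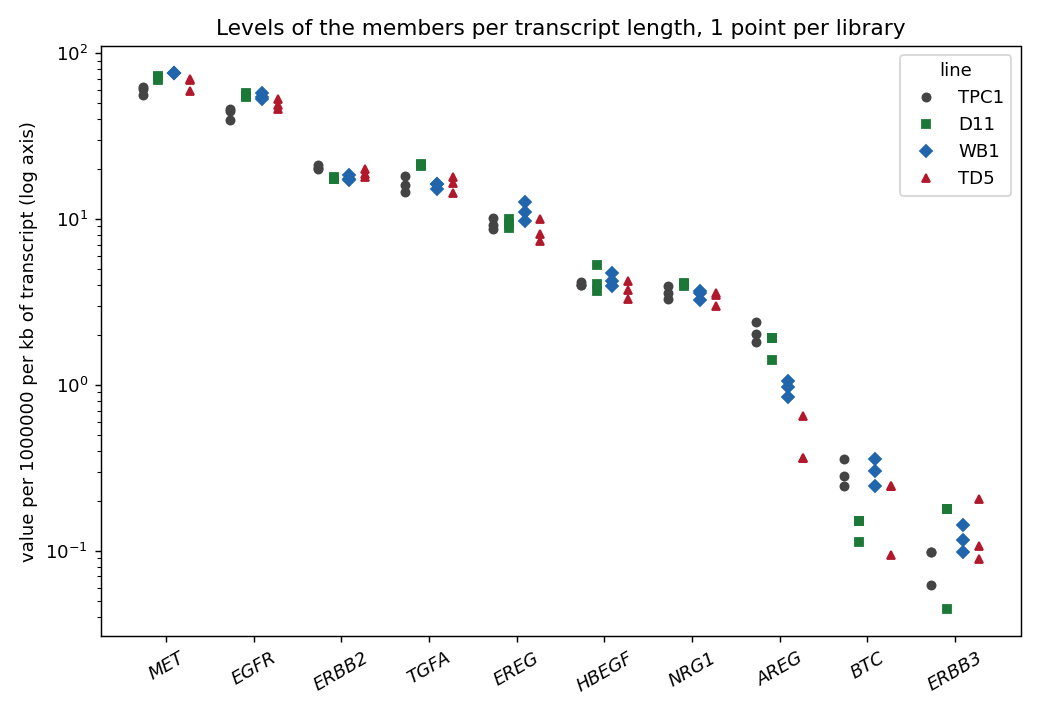
Level of each member per 1000000 and per kb of its canonical transcript in every library, on a log axis, with the members in the order of their TPC1 means. MET (59.7 in TPC1) and EGFR (43.3) lie at the top and ERBB3 (0.086) at the bottom.

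Other genes that act with the members were taken from 7 lists of 68 genes, of which 55 could be tested. Against TPC1, 1 of the 55 was called in D11, 2 in WB1 and 1 in TD5, all of them higher. Of all genes tested, 4.84%, 4.99% and 2.6% were called in these comparisons, in either direction. With adjusted p alone D11 had 13 higher and 8 lower, WB1 18 and 5, and TD5 2 and 2, which makes 38.2%, 41.8% and 7.27% of those tested, beside 33.3%, 30.9% and 11.9% of all genes. The list medians were 0.07, 0.15 and 0.02 on the log2 scale.

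Among the other ligands, 4 of 7 were tested. EGF averaged 45 in TPC1, 33 in D11, 65.67 in WB1 and 43.33 in TD5. No clone passed against TPC1 for EGF (adjusted p = 0.185, 0.0632 and 0.971). WB1 against D11 gave 0.71 (adjusted p = 0.0115, called, as were 2.85% of all genes). That call was lost with no filter, with a pseudocount of 4 and without D11 replicate 2. MST1 averaged 23, 39.33, 33 and 24.33, and passed in D11 (0.46, adjusted p = 0.011) but not in WB1 (0.0866) or TD5 (0.875). NRG4, a neuregulin that binds ERBB4, read 16, 13 and 9 for TPC1, 33, 36 and 36 for D11, 25, 27 and 25 for WB1, and 15, 9 and 12 for TD5. D11 and WB1 lay apart from TPC1 and TD5, with log2 fold changes of 0.76 for D11 (adjusted p = 0.000494, called), 0.49 for WB1 (0.00886) and -0.03 for TD5 (0.918). TD5 against D11 gave -0.79 for NRG4 (adjusted p = 0.000435, called). NRG4 passed the filter on low values only through D11 and WB1, where it is high, so that its entry into the test already rests on this difference. With no filter the differences of D11 from TPC1 and TD5 were called too, and with the GC correction or a pseudocount of 4 both stayed past adjusted p and came under 1.5-fold. NRG2, which binds ERBB3 and ERBB4, read 60, 87 and 43 for TPC1, 107, 93 and 95 for D11, 77, 88 and 116 for WB1, and 120, 113 and 109 for TD5. D11 and TD5 lay above TPC1, with log2 fold changes of 0.54 for D11 (adjusted p = 0.0188), 0.47 for WB1 (0.0384) and 0.72 for TD5 (0.00815, called). The NRG2 call in TD5 was lost without TPC1 replicate 3 (0.53, adjusted p = 0.0539). With a pseudocount of 4 it was lost as well, since the change came under 1.5-fold (0.448). The other family receptor, ERBB4, and the ligand of MET, HGF, were scarce and stood at 0 to 2 scaled reads in every library, as did NRG3, while EPGN read 0 to 4. MST1R, the relative of MET, read 2 to 15.

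Among the 8 genes of ligand release, all of them tested, 2 were called against TPC1, both in WB1, where 4.99% of all genes tested were. ADAM12, a metalloprotease known to cleave the HBEGF precursor, read 486, 534 and 390 for TPC1, 531, 426 and 483 for D11, 827, 795 and 854 for WB1, and 539, 397 and 533 for TD5. WB1 lay above all other libraries, and the log2 fold change was 0.80 against TPC1 (adjusted p = 0.000208), 0.76 against D11 (adjusted p = 0.000488) and, as TD5 against WB1, -0.74 (adjusted p = 0.000912), all called. ADAM19, which cleaves the NRG1 precursor, averaged 2421 in TPC1, 2576 in D11, 3654 in WB1 and 2331 in TD5. It changed by 0.59 in WB1 (adjusted p = 0.000172), just past 1.5-fold, and was under it without TPC1 replicate 1 (0.56), TPC1 replicate 3 (0.56) or WB1 replicate 3 (0.51). The change was also under 1.5-fold with median-of-ratios scaling (0.525) and with a pseudocount of 4 (0.577). TD5 against WB1 gave -0.65 for ADAM19 (adjusted p = 0.000162, called). That call was lost without WB1 replicate 3 (-0.569) or TD5 replicate 2 (-0.55). ADAM17, the main protease for AREG, TGFA and EREG, read 1262 to 1564 over all libraries, with log2 fold changes of 0.03, 0.09 and 0.06 against TPC1 (adjusted p = 0.812, 0.422 and 0.696).

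Downstream of the receptors, 7 of 15 tested adaptors and proximal effectors passed adjusted p in D11, 8 in WB1 and 1 in TD5, or 46.7%, 53.3% and 6.67%, none of them called. Of the 14 tested negative regulators, 6, 4 and 2 passed (42.9%, 28.6% and 14.3%), and of the 12 genes of endocytosis and sorting, 3, 3 and 0 (25%, 25% and 0%). Of all genes tested 33.3%, 30.9% and 11.9% did. Across the lists 3 of the 55 genes passed adjusted p in the same direction in all 3 clones, beside 5.1% of all genes tested: NRG2 was higher, and SHC1 and RNF41 were lower. All 3 clones are set against one group of TPC1 libraries. SHC1, RNF41, PLAU, PLAUR and SOCS4 were singled out with their values already known. SHC1 is the adaptor that links the receptors to GRB2 and SOS, and its log2 fold changes were -0.24, -0.27 and -0.31 (adjusted p = 0.00399, 0.00161 and 0.00115). RNF41 is a ubiquitin ligase that marks ERBB3 for degradation, and it changed by -0.22, -0.34 and -0.24 (adjusted p = 0.0177, 0.00129 and 0.0203). The HGF activation list had 2 tested genes, PLAU and PLAUR. PLAU, the urokinase gene, passed in D11 at -0.18 (adjusted p = 0.0445) and in WB1 at 0.43 (adjusted p = 0.000197), in opposite directions. WB1 against D11 gave 0.60 for PLAU (adjusted p = 7.48e-06, called), but under 1.5-fold with the GC correction (0.58) or without WB1 replicate 1 (0.565). PLAUR, the urokinase receptor gene, passed in WB1 at 0.22 (adjusted p = 0.0377). SOCS4, a negative regulator, was called for TD5 against D11 at -0.615 (adjusted p = 0.0117). That call was lost with a pseudocount of 4, median-of-ratios scaling, the GC correction (-0.344) and some single libraries left out.

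**Figure D4:**
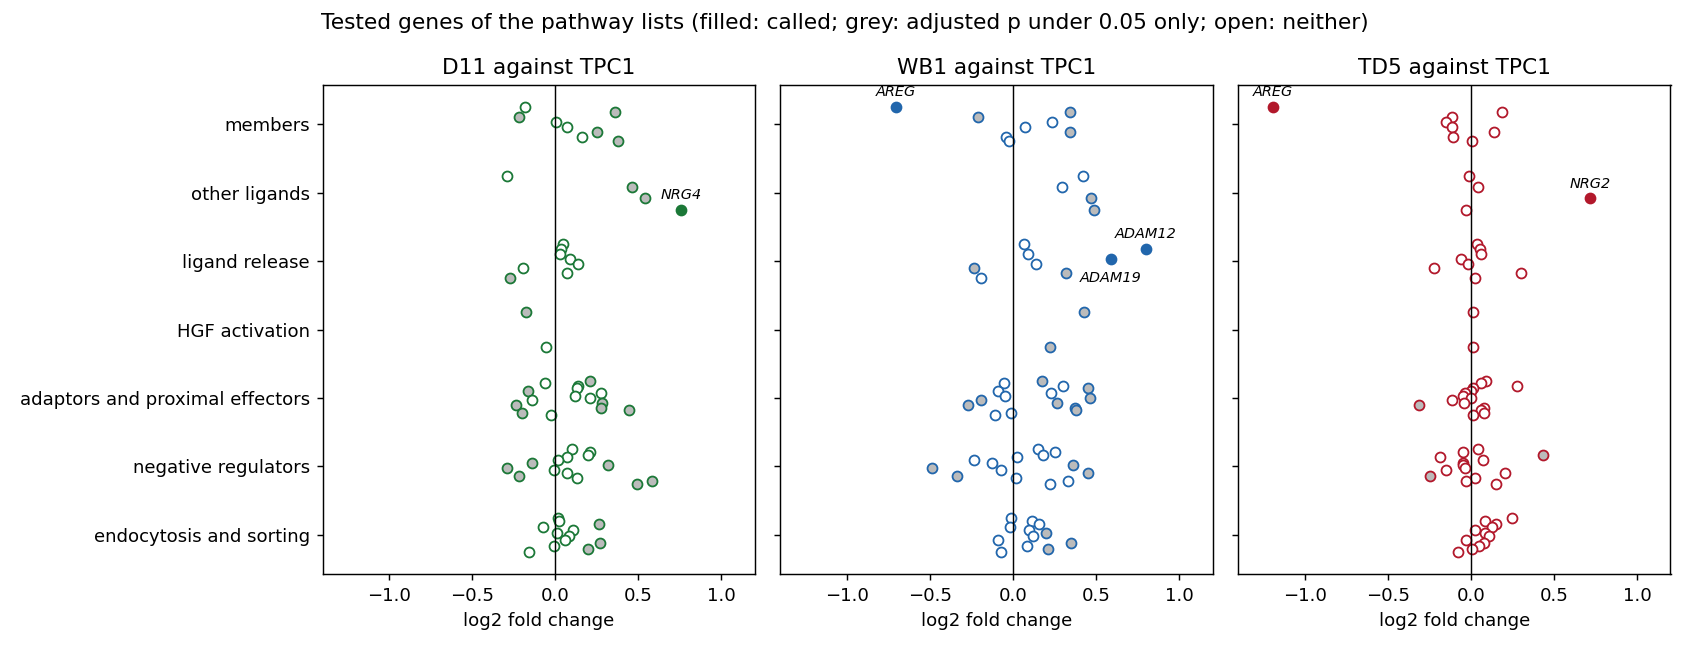
Log2 fold change against TPC1 of the tested members and of the 55 tested genes in the lists, 1 panel per clone, with 1 row per list and 1 point per gene. Filled points were called, grey points had an adjusted p under 0.05 only, and open points neither; AREG is the only called gene that was lower.

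The members with the widest range of line means on the log2 scale were AREG (1.19), TGFA (0.40) and EREG (0.39). The genes whose values ran closest to theirs over the 12 libraries were found by the root mean square difference of centred log2 values among the 12243 genes averaging 5 per 1000000 or more. For AREG these were PID1 (0.19), FYN (0.21) and AC092807.3 (0.23). AREG stood at 2.57 per 1000000 in TPC1 and 0.566 in TD5, so the pseudocount of 1 shrinks its range on this scale. The genes compared are higher and shrink less, so which genes come closest to AREG depends on the pseudocount. PID1 averaged 1312 in TPC1, 1029 in D11, 920.3 in WB1 and 630.7 in TD5. FYN, a SRC family kinase, averaged 289.3, 251.7, 181 and 151.3 in the same order. For TGFA they were ABI2 (0.08), RMND5A (0.08) and PIGX (0.08), and ABI2 averaged 2504 in TPC1, 3026 in D11, 2406 in WB1 and 2413 in TD5. For EREG they were GLIPR1 (0.08), HERC4 (0.09) and MCOLN3 (0.09). With 4 lines, many genes can share a pattern, and this is a description with no test.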

How the data were processed

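RNA was extracted with the miRNeasy kit and made into TruSeq Stranded mRNA libraries, which were sequenced in pairs. Per the submitters' processing notes, STAR 2.5.3a, HTSeq 0.9.1 and the build GRCh38 were used. The deposited values, treated as a score, are counts per gene that the authors scaled to 20000000 aligned reads and rounded up to whole numbers. The edgeR method named in the study needs raw counts and was not used. Reads were estimated from the regular steps between the values.

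Libraries were grouped by their titles. Values per 1000000 plus a pseudocount of 1 were log2 transformed and fitted with limma 3.58.1 (R 4.3.3, trend, 1 mean per line, all 12 libraries), with Benjamini-Hochberg adjustment over the 16027 genes that reached 1 per 1000000 in 3 or more libraries. This filter removed ERBB3 and BTC. AREG passed it through TPC1, D11 and WB1. A member that passes through the line where it is high can differ for that reason.

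The members and lists were chosen with earlier results of these data known. All members were named, with DICER1, every listed gene called against TPC1, and for the 3 members of widest range the 3 closest genes. SHC1, RNF41, PLAU, PLAUR, EGF, MST1 and SOCS4 were chosen after seeing their values. Levels per length used the canonical transcript of the GRCh38 annotation. Tables were made in Python 3.11.15 (pandas 2.3.3, numpy 2.4.6), exact tests with scipy 1.17.1, and plots with matplotlib 3.10.9. The fit was tested on simulated data of TD5 against TPC1 with 15778 genes, where it recovered 91.2% of 2-fold and 99% of 4-fold changes and called 3 unchanged genes. Replicate numbers were checked by the correlation of same-numbered libraries' deviations from their line means, which was over 0.1 in all pairs of D11 and TD5 only (0.107, 0.172 and 0.348), a pairing that no label states. The values given for TD5 against D11 come from the fit without a block, and a block in these lines was an alternative added after seeing the data. Alternatives covered the filter, minimum change, pseudocount, scaling, GC correction (99.1% of tested genes had a value), voom, the replicate block and each library left out. Estimated reads and the floor of 3 reads cover counting error only.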

Additional observations from a re-analysis of the deposited data

Results flagged for a closer look

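The clones differed from each other in 5 members by a test of the difference itself. AREG differed between every pair of clones, by -0.524 for WB1 against D11 (adjusted p = 0.0228), -1.009 for TD5 against D11 (8.3e-05) and -0.485 for TD5 against WB1 (0.0267). TGFA gave -0.404 for WB1 against D11 and -0.375 for TD5 against D11 (adjusted p = 0.00452 for both). NRG1 gave -0.273 for TD5 against D11 (adjusted p = 0.0289). MET gave -0.203 and EREG -0.385 for TD5 against WB1 (adjusted p = 0.0457 and 0.0256). With the GC correction NRG1 gave -0.108 (adjusted p = 0.343), MET -0.091 (0.292) and EREG -0.2 (0.0812) in these comparisons, so that none of these 3 passed. AREG for TD5 against WB1 did not pass with it either (-0.394, adjusted p = 0.0672). With no filter on low values, AREG did not pass for WB1 against D11 (adjusted p = 0.0747) or for TD5 against WB1 (0.0785). AREG passed adjusted p in 16 of 21 alternatives for WB1 against D11 and in 12 of 21 for TD5 against WB1. Leaving out single libraries was among the settings where each did not pass. Values are log2 differences from limma with 3 libraries per line.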

How the results depend on the processing

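Of 1016 values of members under an alternative, 971 kept their direction and their side of the call, 3 lost and 6 gained a call, and 36, in 14 of 48 results, changed sign. The 971 include the settings, named for AREG above, that cannot move the fold and so cannot change its direction. Of those 36, 1 passed adjusted p. The cause was not tested. Calls are limited by few reads for AREG, and ERBB3 and BTC are too low for a test. The median shift of log2 fold changes under median-of-ratios scaling was largest for WB1 against TPC1, at -0.061. The median of all genes went from 0.058 to 0.001 in that comparison.

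With no minimum change the members called were 4 in D11 and 4 in WB1 against TPC1, 2 for WB1 against D11, 3 for TD5 against D11 and 3 for TD5 against WB1. With a pseudocount of 4 they were 0 in WB1, 0 in TD5 and 0 for TD5 against D11. With a pseudocount of 0.25 and with voom they were 1 for WB1 against D11 and 1 for TD5 against WB1. Leaving out 1 library gave 0 to 1 for both of these, the 1 being AREG without D11 replicate 1 or without TD5 replicate 1.

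Between clones, the main fit called 3 of the 55 tested list genes for WB1 against D11, 2 for TD5 against D11 and 2 for TD5 against WB1. Of all genes tested, 2.85%, 3.99% and 2.33% were called there. For the lists, no minimum change gave 21, 23 and 4 called in D11, WB1 and TD5 against TPC1. It gave 8 for WB1 against D11, 13 for TD5 against D11 and 11 for TD5 against WB1. These last counts were 14.5%, 23.6% and 20% of the list genes tested, beside 8.07%, 23.2% and 13.6% of all genes. A pseudocount of 0.25 and voom gave 4 in D11. A pseudocount of 4 gave 0 in D11, 1 in WB1, 0 in TD5 and 0 for TD5 against D11. Median-of-ratios scaling gave 1 in WB1 and 1 for TD5 against D11, and the GC correction 0 for the latter. Leaving out 1 library gave 1 to 2 in D11, 1 to 3 in WB1, 0 to 1 in TD5, 2 to 3 for WB1 against D11, 1 to 2 for TD5 against D11 and 1 to 3 for TD5 against WB1.

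Changes of sign under the GC correction were ERBB2 for WB1 against D11 (-0.005), MET for TD5 against D11 (0.006), HBEGF for WB1 against D11 (-0.018), EREG in D11 (-0.31), in WB1 (-0.004) and for TD5 against D11 (0.106), TGFA in TD5 (-0.013), and NRG1 in D11 (-0.029) and for TD5 against WB1 (0.076). Median-of-ratios scaling gave HBEGF -0.002 for WB1 against D11, EREG -0.054 in D11 and TGFA -0.001 in TD5, and voom gave HBEGF -0.007 for WB1 against D11 and TGFA -0.005 in TD5. Leaving out 1 library moved EGFR (-0.043 to 0.012), ERBB2 (-0.017 to 0.026) and HBEGF (-0.098 to 0.142) for WB1 against D11, HBEGF (-0.07 to 0.17) and EREG (-0.048 to 0.065) in D11, TGFA (-0.098 to 0.055) and NRG1 (-0.104 to 0.027) in WB1, TGFA (-0.068 to 0.09) in TD5, and TGFA (-0.042 to 0.114) and NRG1 (-0.123 to 0.014) for TD5 against WB1.

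The replicate block changed no call. For AREG in TD5 against D11 it left -1.009, with adjusted p = 0.000368 in all lines and 6.82e-05 in these lines alone, and the members whose adjusted p crossed 0.05 with it were MET for TD5 against WB1 (0.0686) and, in these lines alone, EGFR for TD5 against D11 (0.0268).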
